A study of Homo sapiens with 12 samples.

Results

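Collagens, laminins and integrins are 3 gene families that build the matrix around epithelial cells and attach the cells to it. The genes were taken as every non-control probe whose gene name on the array was that of a collagen chain, a laminin chain or an integrin subunit, which gave 122 probes of 80 genes among 50599 probes. These were 43 collagen, 12 laminin and 25 integrin genes. A gene counted as expressed when the scanner's software called its probe well above background on 3 arrays or more. By this rule 64 of the 80 genes were tested, among 24857 genes in all. Where a gene had several probes the brightest stood for it.

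RNA was measured on 12 one-colour Agilent arrays in 3 human lung adenocarcinoma lines, A549, PC14 and PC14CDDP, where PC14CDDP is the cisplatin-resistant derivative of PC14. Each line was transfected at 25 nM with 4 oligonucleotides in turn, with 1 array for each. They were pre-miR-197 (a precursor that raises miR-197) and NC (the negative control set against it, labelled AllStar-NC). The others were LNA-miR-197 (a locked nucleic acid inhibitor of miR-197) and LNA-NC (the LNA control). The time after transfection was not given in the sources used here. Thus the 3 lines were the replicates of a transfection, and the 4 transfections of a line stood for that line, so the p-values between lines measure the spread between cultures of 1 line each. All A549 arrays lay on 1 slide and all PC14 and PC14CDDP arrays on another, so A549 against PC14 and the slides cannot be told apart, and each transfection held its own column of the slides, which cannot be told apart from it either. Values are log2 levels, the log2 of the processed signal minus the log2 of that array's 75th percentile. A level of 0 is a bright probe at that percentile, and levels of different probes are not compared.

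Basement membranes are sheets of laminin and type IV collagen under epithelia. A laminin is a trimer of an alpha, a beta and a gamma chain, and epithelial cells are anchored to laminins through the integrins alpha3-beta1 and alpha6-beta4. Fibrillar collagens such as types I and V form the fibres of the stroma, FACIT collagens sit on their surface, and integrins are alpha-beta heterodimers that bind collagens, laminins or proteins with an RGD motif.

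The 6 type IV collagen genes lie in 3 pairs, each read outward from a shared stretch. In the RefSeq annotation of GRCh38.p14 the starts of COL4A1 and COL4A2 were 126 bases apart on chromosome 13, those of COL4A6 and COL4A5 379 bases on chromosome X, and those of COL4A4 and COL4A3 418 bases on chromosome 2. The stretches are shown because members of a pair are described side by side, and the miR-197 arms because they are the molecule that was raised or blocked. The 126-base stretch runs over chr13:110307158-110307283, and the others are the 250 bases before the start of the second gene, at chrX:108439588-108439837 and chr2:227164374-227164623. All are the plus strand, 5′ to 3′, from RefSeq, with matches to GGGCGG (the GC box) and CCAAT on either strand in capitals. In the miRNAs the capitals mark the seed, bases 2 to 8.
hsa-miR-197-3p: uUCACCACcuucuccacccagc
hsa-miR-197-5p: cGGGUAGAgagggcagugggagg
COL4A1/COL4A2: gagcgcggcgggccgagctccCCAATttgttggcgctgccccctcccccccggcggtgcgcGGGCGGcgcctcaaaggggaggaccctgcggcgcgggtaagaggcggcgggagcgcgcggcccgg
COL4A6/COL4A5: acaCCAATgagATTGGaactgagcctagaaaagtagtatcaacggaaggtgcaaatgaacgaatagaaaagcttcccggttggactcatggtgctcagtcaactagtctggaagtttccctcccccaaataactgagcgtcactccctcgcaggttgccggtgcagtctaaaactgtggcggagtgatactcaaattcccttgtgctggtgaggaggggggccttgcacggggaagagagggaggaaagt
COL4A4/COL4A3: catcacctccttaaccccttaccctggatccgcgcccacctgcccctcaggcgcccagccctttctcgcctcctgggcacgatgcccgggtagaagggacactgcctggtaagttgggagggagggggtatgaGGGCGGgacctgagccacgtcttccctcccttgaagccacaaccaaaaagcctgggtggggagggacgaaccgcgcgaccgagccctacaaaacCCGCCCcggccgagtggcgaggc

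The labels do not say which miR-197 arm the reagents carried. The COL4A1/COL4A2 stretch held 1 GGGCGG and 1 CCAAT, COL4A6/COL4A5 held 0 and 2, and COL4A4/COL4A3 held 2 and 0. Of all 35116 promoter windows in the table, 42.6% held GGGCGG and 32.0% held CCAAT within 250 bases, and 34.6% and 21.1% within 126 bases, so these are common letters and no sites are claimed. The GC content was 80.2%, 51.2% and 66.4% in the same order. Promoter windows were listed for 56 of the 80 genes.

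Detection differed by family. By the rule of 3 arrays 64 of the 80 genes were expressed, as were 24857 of all 36274 genes with complete values. On all 12 arrays 44 and 18489 were well above background. Of the 43 collagens 31 were expressed and 19 were well above background on all 12 arrays, against 11 and 9 of the 12 laminins, and 22 and 16 of the 25 integrins. The 12 genes that were well above background on no array were COL1A2, COL2A1, COL5A3, COL6A3, COL6A5, COL6A6, COL8A1, COL11A1, COL15A1, COL19A1, COL25A1 and ITGA8. COL3A1, LAMB4, ITGAL and ITGB6 were so on 1 or 2 arrays. Of all 80 genes, 58 were well above background on all 4 arrays of A549, 51 of PC14 and 47 of PC14CDDP. Per array, 60.3% to 62.4% of all probes were well above background in A549, 59.9% to 63.1% in PC14 and 55.8% to 59.5% in PC14CDDP. COL4A3, COL21A1, LAMA2, ITGAX and ITGB8 were so on all 4 A549 arrays and none of the other 8, COL17A1 and LAMA1 on no A549 array, and LAMA1 only in PC14CDDP, on 3 arrays.

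Of the 5 epithelial markers, the keratins KRT8, KRT18 and KRT19 exceeded background clearly on all 12 arrays. The junction markers CDH1 and EPCAM were so on all A549 arrays, on some but not all 4 PC14 arrays and on no PC14CDDP array. Of the fibroblast markers, DCN, LUM, PDGFRB and FAP were above background on no array of any line, while THY1 and ACTA2 were so on all 4 A549 arrays. The levels of the 7 fibroblast markers were also summed on the linear scale, where the brightest probes weigh most. The log2 of this sum was 0.99 to 1.29 in A549, -3.99 to -3.67 in PC14 and -4.84 to -2.66 in PC14CDDP. The part of these markers in the collagen results was not tested. Of the endothelial markers, KDR was above background on no array, while CDH5 and VWF were so on all 12. PECAM1 was so on all 4 PC14 arrays and on no PC14CDDP array (-6.36 ± 0.62, adjusted p = 8.3e-05), and its part in the differences between these lines was not tested.

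PC14CDDP was compared with its parent to ask which matrix and receptor genes differ between a cisplatin-resistant line and the line it came from. Of the 64 expressed genes, 25 were lower in PC14CDDP (39.1%) and 12 were higher (18.8%) at a limma adjusted p under 0.05, where 23.6% of all genes were called lower and 24.7% higher. The median log2 difference was -0.12 over these genes and 0.03 over all genes. Both lines lay on 1 slide, PC14 in row 1 and PC14CDDP in row 2, so line and slide row cannot be told apart. With only the NC and LNA-NC arrays 24 were called in place of 37, where 27.3% of all genes were called in place of 48.3%. With normexp background correction 31 of the 64 were called, where 47.5% of all genes were, so that share was near the background. Of the 31 collagens 13 were lower and 5 higher. COL12A1, ITGA4, LAMA1, COL5A1, ITGB3 and LAMB3 were higher.

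**Figure D1:**
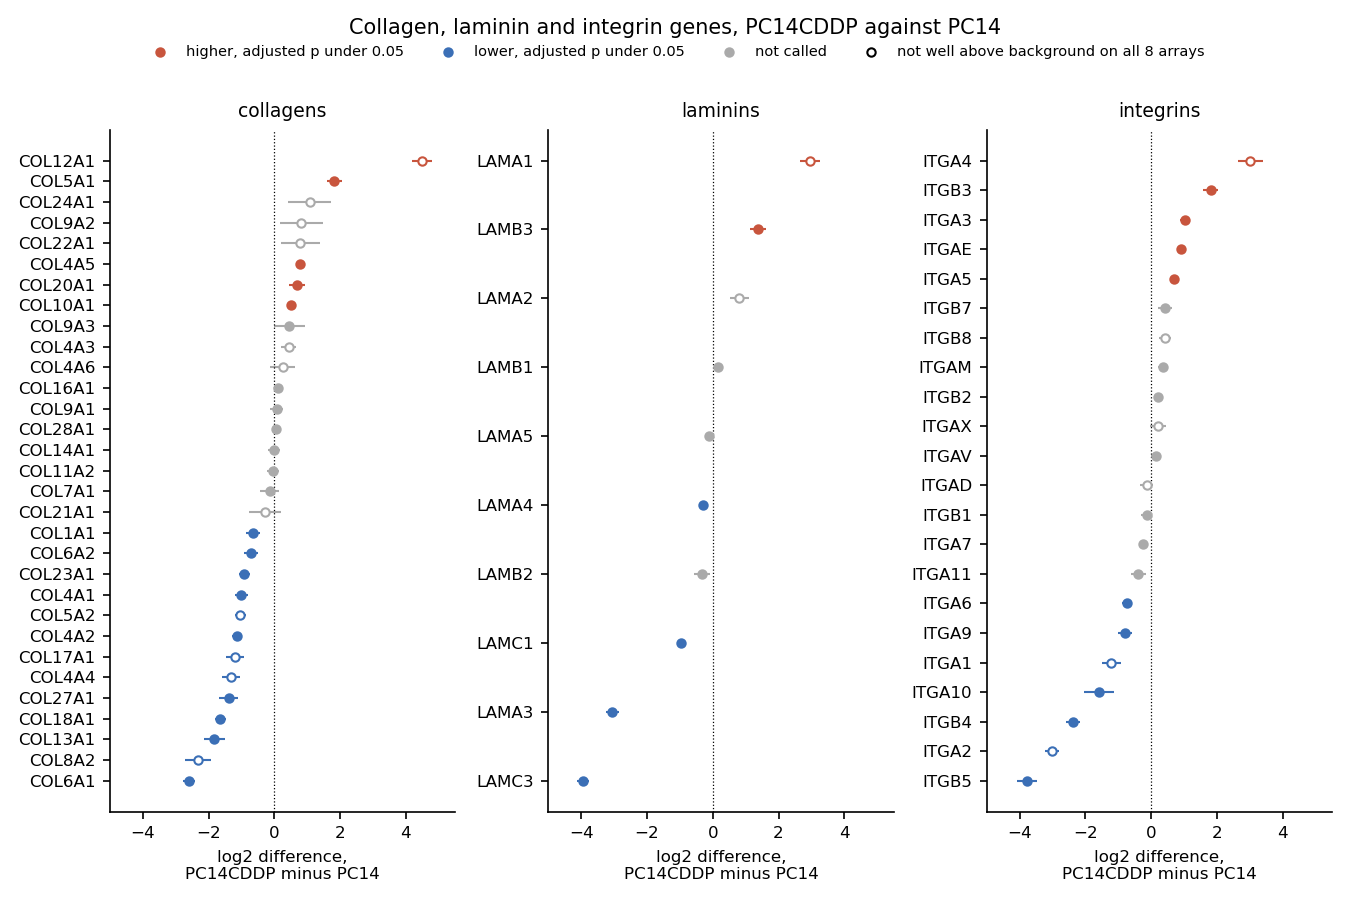
Log2 difference between PC14CDDP and PC14 (x axis; points are the limma estimate over 4 arrays a line, bars its SE) for the expressed collagen, laminin and integrin genes. Red and blue points were called higher and lower, grey points were not called, and open points were not well above background on all 8 arrays; the range runs from LAMC3 at -3.95 to COL12A1 at 4.50.

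Among laminin chains, LAMA3, LAMC1, LAMC3 and LAMA4 were lower and LAMA1 and LAMB3 higher. LAMC3, a gamma chain of vascular and other basement membranes, had log2 levels of 1.79, 2.38, 2.04 and 1.59 in PC14 after NC, pre-miR-197, LNA-NC and LNA-miR-197, the order used for every line here, and -2.04, -1.61, -1.52 and -2.82 in PC14CDDP. The PC14CDDP arrays all lay far below, and the difference was -3.95 ± 0.18 (limma SE, adjusted p = 1.5e-06). Its other probes differed by -4.25 and -2.71. LAMC1, the common gamma chain, differed by -0.97 ± 0.12 (adjusted p = 0.00036).

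LAMB3 and LAMA3, a beta and an alpha chain gene of epithelial laminins, moved in opposite directions. LAMB3 had levels of 4.81, 5.49, 5.28 and 5.55 in PC14 and of 6.51, 6.84, 6.60 and 6.66 in PC14CDDP, a difference of 1.37 ± 0.24 (adjusted p = 0.0019) with no overlap between the lines. LAMA3 had levels of 0.30, 1.04, 0.23 and 0.01 in PC14 and of -2.67, -2.04, -2.38 and -3.53 in PC14CDDP, a difference of -3.05 ± 0.21 (adjusted p = 1.3e-05). A second LAMA3 probe was lower by less, at -0.62.

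LAMA1, the alpha chain of embryonic laminin-111, was well above background on 3 PC14CDDP arrays and on no PC14 array. Its levels were -4.52, -4.72, -5.56 and -6.01 in PC14CDDP, at least 2.07-fold above the level that PC14 could have had. It passed the rule of 3 arrays only through PC14CDDP. The rule thus favoured a call as higher, and its p-value is not used. LAMA4 was called lower by 1 probe (-0.31 ± 0.10, adjusted p = 0.029) but another of its probes stood at 0.42, and it was called in 5 of 15 alternative settings. LAMA5, LAMB1 and LAMB2, the chains of the laminins most epithelia share, were not called, with differences of -0.11, 0.17 and -0.33.

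**Figure D2:**
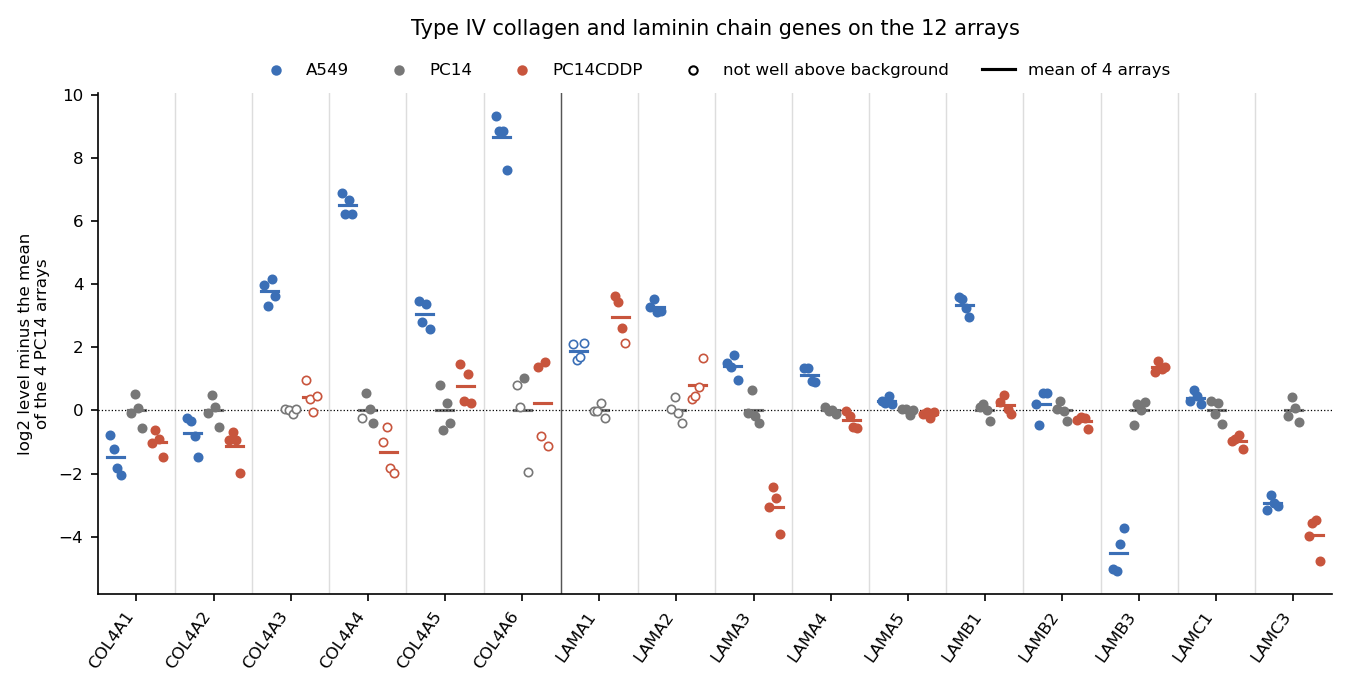
Log2 level on each of the 12 arrays minus the mean of the 4 PC14 arrays (y axis) for type IV collagen and laminin chain genes; bars are means of 4 arrays and open points were not well above background. LAMC3 and LAMA3 sit low in PC14CDDP while LAMB3 sits above PC14, COL4A1 and COL4A2 are lower in both other lines, and COL4A3 to COL4A6 are higher in A549.

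Both genes of the COL4A1 and COL4A2 pair were lower in PC14CDDP. COL4A2, whose product is the alpha2 chain of the main basement membrane network, had levels of 5.20, 5.77, 5.40 and 4.77 in PC14 and of 4.36, 4.61, 4.35 and 3.29 in PC14CDDP. COL4A1, read from the other side of the stretch printed above, had levels of 1.92, 2.52, 2.07 and 1.45 in PC14 and of 0.97, 1.38, 1.08 and 0.53 in PC14CDDP. On both probes every PC14CDDP array lay below every PC14 array. The differences were -1.13 ± 0.14 for COL4A2 (adjusted p = 0.00033) and -1.002 ± 0.19 for COL4A1 (adjusted p = 0.0030), and both were called in all 15 alternative settings. COL4A5 of the X-linked pair was higher (0.79 ± 0.12, adjusted p = 0.00088) and its partner COL4A6 was not called (0.25 ± 0.37), being well above background on 2 PC14CDDP and 1 PC14 arrays. COL4A4 was called lower (-1.33 ± 0.28), but no PC14CDDP array measured it and no bound above equality could be given.

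Outside the basement membrane network, COL12A1, a FACIT collagen, had the largest difference upward. Its levels were -2.02, -1.57, -2.43 and -2.28 in PC14CDDP, all well above background, and none of the PC14 arrays was. The ratio was at least 18.0-fold (adjusted p = 1.3e-05), and a second probe differed by 3.03. COL5A1, a regulator of fibre width in the fibrillar group, was -1.56, -1.08, -1.52 and -1.69 in PC14 and 0.51, 0.30, 0.34 and 0.29 in PC14CDDP (1.82 ± 0.23, adjusted p = 0.00032). Its other probes, at 0.33 and 0.58, were not called. COL5A2, whose chain combines with that of COL5A1 in type V collagen, went the other way (-1.03 ± 0.18), with 1 PC14CDDP array above background.

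COL6A1, of the beaded filament collagen VI, had the largest difference downward among the collagens. It had levels of 5.01, 4.48, 4.89 and 4.10 in PC14 and of 2.37, 1.60, 2.21 and 1.93 in PC14CDDP, a difference of -2.59 ± 0.17 (adjusted p = 1.3e-05). COL6A2, its neighbour on chromosome 21, was lower by less (-0.72 ± 0.21, adjusted p = 0.023), and its other probe differed by -1.51. All 4 expressed transmembrane collagens and multiplexins were lower. These were COL13A1 (-1.83 ± 0.32), COL18A1, the source of endostatin (-1.65 ± 0.17), COL17A1 of the hemidesmosome (-1.19 ± 0.27) and COL23A1 (-0.91 ± 0.16). COL8A2 was above background on all 4 PC14 arrays and no PC14CDDP array, at least 1.12-fold lower. The remaining called collagens were COL27A1 and COL1A1, lower at -1.39 and -0.66, and COL10A1 and COL20A1, higher at 0.50 and 0.69. Of 15 alternative settings, COL1A1 was called in 7 and COL20A1 in 8. COL7A1, the anchoring fibril collagen, was not called (-0.15 ± 0.28). The probes of COL16A1 disagreed, since the brightest was not called and the other differed by 3.78.

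Of the receptors, 7 integrin genes were lower and 5 higher among 22. ITGB5, which pairs with alpha-V to bind vitronectin, had levels of 1.28, 1.88, 1.09 and 0.87 in PC14 and of -3.15, -1.08, -2.64 and -3.11 in PC14CDDP (-3.77 ± 0.31, adjusted p = 3.4e-05). ITGB3, another partner of alpha-V, rose from 1.01, 1.17, 1.06 and 1.12 to 3.48, 2.82, 2.90 and 2.41 (1.81 ± 0.23, adjusted p = 0.00035). Both lists of levels stood apart without overlap. ITGAV itself was not called (0.14 ± 0.13).

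The laminin receptors also split. ITGB4, the hemidesmosome subunit, had levels of 4.20, 3.68, 3.88 and 2.97 in PC14 and of 2.23, 0.64, 1.72 and 0.64 in PC14CDDP (-2.38 ± 0.21, adjusted p = 5.8e-05). Its partner ITGA6 was lower by -0.73 ± 0.15 (adjusted p = 0.0043), and a second probe by -0.75. ITGA3 was higher, at 1.57, 1.26, 1.47 and 1.21 in PC14 and 2.78, 2.12, 2.84 and 1.88 in PC14CDDP (1.03 ± 0.14, adjusted p = 0.00050). ITGB1, the beta chain that most alpha subunits share, was not called (-0.14 ± 0.16).

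All 4 collagen-receptor alpha genes had differences below 0, and 3 were called. ITGA2 was -2.36, -2.63, -2.06 and -2.26 in PC14 and -5.76, -4.69, -5.32 and -5.66 in PC14CDDP, where 2 arrays were well above background (-3.03 ± 0.21, adjusted p = 1.6e-05). ITGA1 (-1.21 ± 0.29) was measured on 1 PC14CDDP array, and ITGA10 stood at -1.59 ± 0.46. The ITGA10 difference ran from -3.35 after NC to -0.38 after LNA-NC, and it was called in 10 of 15 alternative settings. Among other alphas, ITGA4, whose product binds fibronectin and VCAM1, rose from -5.14, -4.65, -5.67 and -7.13 to -2.78, -1.77, -3.02 and -2.95 (3.02 ± 0.39, adjusted p = 0.00035), and its 2 other probes differed by 1.75 and 3.54. ITGA5, the fibronectin receptor chain, was higher by 0.70 ± 0.09 and ITGAE, which pairs with beta7, by 0.90 ± 0.09. ITGA9 was lower (-0.81 ± 0.21).

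**Figure D3:**
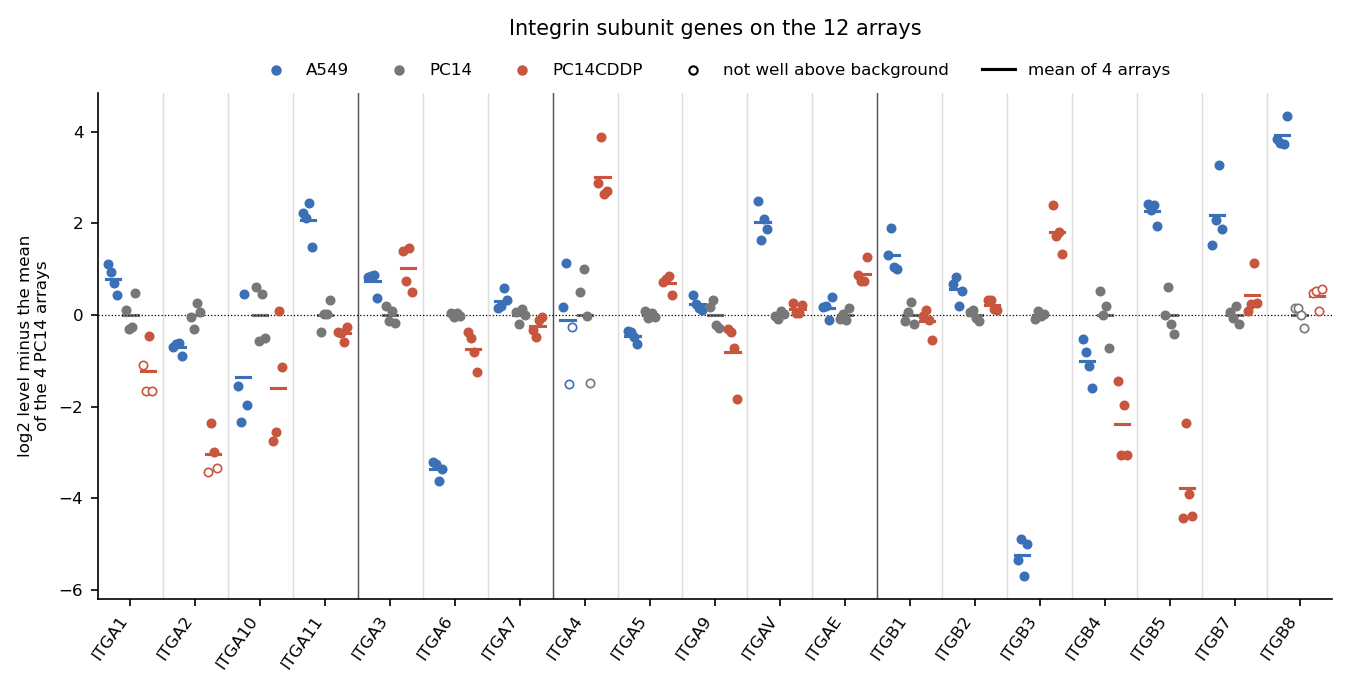
Log2 level on each of the 12 arrays minus the mean of the 4 PC14 arrays (y axis) for 19 expressed integrin genes, ordered as collagen receptors, laminin receptors, other alpha chains and beta chains; bars are means of 4 arrays and open points were not well above background. In PC14CDDP, ITGB5, ITGA2 and ITGB4 sit below PC14 and ITGA4, ITGB3 and ITGA3 above; A549 has low ITGB3 and ITGA6.

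Genes that make, modify or bind these proteins were counted beside them. Of 26 collagen processing genes tested, 14 were lower and 2 higher in PC14CDDP, with the collagen galactosyltransferase COLGALT2 (-4.08 ± 0.44) and the lysyl oxidase relative LOXL1 (-3.35 ± 0.20) lowest, and LOX, the crosslinking lysyl oxidase (4.11 ± 0.41), highest. Of 15 basement membrane partners 7 were lower, including NTN4 (-3.19 ± 0.32) and SMOC1 (-1.91 ± 0.21), and 3 higher, including SPARC (3.21 ± 0.20) and FRAS1 (3.23 ± 0.67). Integrin adaptors had 7 lower, with TNS3 at -6.16 ± 0.26, and 4 higher of 17, other integrin ligands and matrix receptors 2 lower and 3 higher of 14, with tenascin-C, TNC, at 6.57 ± 0.14, and TGF-beta genes 4 lower and 1 higher of 9. Epithelial markers had 3 lower of 5, and their part in these differences was not tested. For the genes called, 18 of 19 further probes had the same sign, the exception being 1 of LAMA4. Of these 18 probes, 12 were themselves called.

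A549 was compared with PC14 to place these genes in a second parental line. Of the 64 genes, 36 were higher in A549 (56.2%) and 17 lower (26.6%), where 35.9% and 32.3% of all genes were. The 36 include COL4A3, COL21A1, LAMA2, ITGAX and ITGB8, which were well above background on A549 arrays alone. The rule of 3 arrays let these in only through A549, which favoured a call as higher. On all 4 PC14 arrays and none of the other 8 were 0 members. The same counts over all genes were not made. The median log2 difference was 0.82, against 0.08 over all genes. The largest difference in each direction was that of a collagen. Of the collagen processing genes 9 were higher and 13 lower of 26, of basement membrane partners 9 and 4 of 15, of integrin adaptors 10 and 3 of 17, of other ligands and receptors 11 and 2 of 14, and of TGF-beta genes 8 and 1 of 9. All 5 epithelial markers were higher in A549, and their part in these differences was not tested.

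COL5A2 had log2 levels of 4.35, 4.07, 4.21 and 3.79 in A549 and of -4.44, -5.22, -4.40 and -5.25 in PC14, all well above background (8.93 ± 0.18, adjusted p = 6.6e-09). COL4A6 was at 2.54, 2.05, 2.06 and 0.81 in A549 and well above background on 1 of 4 PC14 arrays (8.67 ± 0.37, adjusted p = 3.3e-07). COL4A5, its head-to-head partner, was at 1.67, 1.01, 1.56 and 0.78 in A549 and -1.01, -2.43, -1.58 and -2.19 in PC14 (3.06 ± 0.12, adjusted p = 2.1e-07). COL4A4 was higher too (6.50 ± 0.28), and its partner COL4A3 at least 4.17-fold higher, being on no PC14 array. Thus both pairs whose chains form the restricted type IV networks were higher in A549, while COL4A1 (-1.47 ± 0.19) and COL4A2 (-0.71 ± 0.14) were lower.

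Further A549-high collagens were COL7A1 (4.85 ± 0.28), COL5A1 (4.05 ± 0.23) and COL1A1 (2.50 ± 0.21). COL12A1, COL21A1 and COL22A1 were at least 38.8-fold, 10.5-fold and 6.50-fold higher, since no PC14 array measured them. The opposite held for COL13A1, a transmembrane collagen of adhesion sites, at 1.71, 0.97, 1.52 and 0.91 in PC14 and well above background on 1 A549 array (-7.90 ± 0.32, adjusted p = 2.5e-07). COL6A1 (-2.92 ± 0.17) and COL6A2 (-2.35 ± 0.21) were lower, and COL17A1 was at least 5.75-fold lower. Among laminins, LAMB3 was at 0.25, 0.18, 1.05 and 1.56 in A549 against 4.81 to 5.55 in PC14 (-4.52 ± 0.24, adjusted p = 1.1e-06). LAMC3 was lower (-2.94 ± 0.18), LAMA3 higher (1.40 ± 0.21), and LAMA2 at least 2.31-fold higher. LAMB1 was higher by its brightest probe (3.34 ± 0.08) and at -0.40 by another. All 5 alpha chains were called higher, although LAMA1 was above background in neither line and LAMA5 moved by only 0.29 ± 0.10 on its brightest probe and by 3.87 on the other.

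Of the 22 integrin genes 13 were higher in A549 and 6 lower. ITGB3 was at -4.25, -3.79, -4.60 and -3.91 in A549 against 1.01 to 1.17 in PC14 (-5.23 ± 0.23, adjusted p = 4.1e-07), and ITGA6 was lower (-3.36 ± 0.15, adjusted p = 4.3e-07). ITGB5 (2.26 ± 0.31), ITGAV (2.02 ± 0.13), ITGB1 (1.32 ± 0.16) and ITGA11 (2.07 ± 0.23) were higher, and ITGB8, the partner of alpha-V in TGF-beta activation, was at least 3.09-fold higher. The leukocyte integrins ITGAM (2.94 ± 0.14) and ITGAD (0.79 ± 0.20) were higher and ITGAX at least 3.47-fold so. Of 5 leukocyte markers, 4 were well above background on all arrays of all lines. The log2 of the summed linear levels of the 5 was 2.51 to 2.90 in A549 and 1.22 to 1.43 in PC14. The part of these markers in the integrin differences was not tested. For the genes called, 21 of 26 further probes had the same sign, and 18 of these 21 were themselves called. The probes with the other sign were of COL11A2, COL23A1, ITGB2 and LAMB1.

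The inhibitor was compared with its control to ask which of these genes move when miR-197 is blocked. After LNA-miR-197, 7 of the 64 genes were called lower (10.9%) and 1 higher (1.56%), where 3.9% of all genes were called lower and 3.75% higher. All 7 were collagens, of 31 tested. An unadjusted p under 0.05 was found for 18 members (28.1%) and for 27.2% of all genes, so that share was near the background. Without A549, without PC14 or without PC14CDDP 0 of the 64 were called, as were 0, 2 and 0 of all genes, so the loss was not that of the members alone. At an unadjusted p under 0.05 were 34.4%, 21.9% and 18.8% of the members in these fits (22, 14 and 12 genes), against 27.7%, 16.6% and 15.2% of all genes. The count of members was also 0 when the LNA arrays were fitted alone, where 0 of all genes were called, or when dim probes were kept, where 1.43% were. It was 13 with a trend and robust prior, where 13% of all genes were called.

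COL4A5, the X-linked basement membrane chain, is the gene with the smallest adjusted p. Its log2 levels after LNA-NC and LNA-miR-197 were 1.56 and 0.78 in A549, -1.58 and -2.19 in PC14, and -0.67 and -1.57 in PC14CDDP. It was lower in all 3 lines, by -0.76 ± 0.14 on the log2 scale (n = 3 lines, limma adjusted p = 0.024). Its probe lies on the plus strand at chrX:107940580-107940639 of hg19. COL4A6, from the same stretch, stood at 2.06 with the control and 0.81 with the inhibitor in A549. The PC14 pair was -5.78 and -8.77, and that of PC14CDDP -5.27 and -7.93. The fit gave -2.30 ± 0.43 (adjusted p = 0.026), but the LNA-miR-197 arrays of PC14 and PC14CDDP were not well above background, so only the A549 ratio of -1.25 was measured on both sides.

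COL4A2 was at 4.48, 5.40 and 4.35 with the control in A549, PC14 and PC14CDDP and at 3.80, 4.77 and 3.29 with the inhibitor (-0.79 ± 0.17, adjusted p = 0.034). COL4A1 had ratios of -0.23, -0.62 and -0.56 and was not called (-0.47 ± 0.22). COL18A1, the multiplexin of basement membranes, was at 5.87, 4.59 and 3.03 with the control and at 5.12, 3.62 and 1.62 with the inhibitor (-1.05 ± 0.20, adjusted p = 0.027). COL1A1, the main stromal fibril chain, was at -0.82, -3.28 and -3.60 with the control and at -1.997, -4.33 and -4.52 with the inhibitor (-1.05 ± 0.25, adjusted p = 0.043). For COL4A2, COL18A1 and COL1A1 the treated array was the lower in all 3 lines.

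COL5A2 (-0.89 ± 0.21, adjusted p = 0.045) and COL13A1 (-1.53 ± 0.37, adjusted p = 0.046) were lower in all 3 lines as well. COL5A2 was below background on the PC14CDDP array with LNA-miR-197, and COL13A1 on the A549 array. ITGAE, the epithelial-homing alpha chain, was the gene called higher, at 2.55 and 3.07 in A549, 2.56 and 2.83 in PC14 and 3.41 and 3.93 in PC14CDDP (0.44 ± 0.10, adjusted p = 0.044). LAMB3 had ratios above 0 in all lines without a call (0.28 ± 0.28). Laminins (0 of 11 called) and the 22 integrins, ITGAE included, had their median below 0, at -0.23 and -0.20. At an unadjusted p under 0.05 were 8 collagens (25.8%), 5 laminins (45.5%) and 5 integrins (22.7%), against 27.2% of all genes. ITGB4 stood at -0.82 ± 0.25 (adjusted p = 0.079), and the median of all 64 was -0.25, against -0.02 over all genes.

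**Figure D4:**
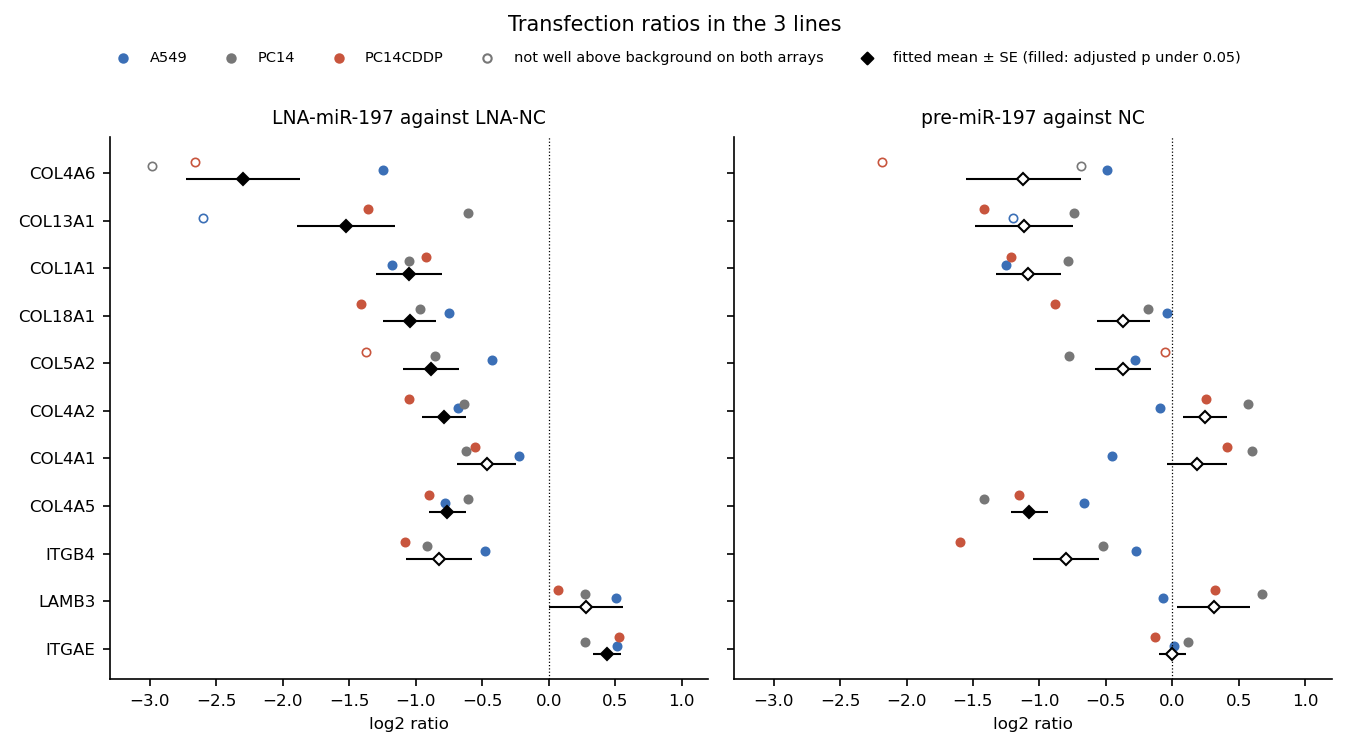
Log2 ratios of named genes (x axis) for LNA-miR-197 against LNA-NC and for pre-miR-197 against NC; circles are the single ratio of each line, open where 1 or both arrays were not well above background, and diamonds are the limma estimate with its SE, filled at an adjusted p under 0.05. The collagens and ITGB4 sit below 0 with the inhibitor. With both reagents COL4A6, COL13A1, COL1A1, COL18A1, COL5A2, COL4A5 and ITGB4 sit below 0 in each line, and COL4A1 and COL4A2 do not.

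Beside them, 2 of 15 basement membrane partners were lower with the inhibitor, the proteoglycans AGRN (-0.87 ± 0.13, adjusted p = 0.019) and HSPG2 (-0.96 ± 0.23, adjusted p = 0.044). Of the 26 collagen processing genes 3 were lower, LOXL2 (-0.69 ± 0.12), CRTAP (-0.74 ± 0.16) and PCOLCE (-0.47 ± 0.11). Of the integrin adaptors 1 of 17 was lower, PARVB (-0.97 ± 0.21), and of the TGF-beta genes 2 of 9, SMAD3 (-0.56 ± 0.13) and TGFBR1 (-0.67 ± 0.15). In these 4 lists 0 genes were higher, and of the other integrin ligands and matrix receptors 0 of 14 were called in either direction by limma.

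With NC as the control, the same LNA-miR-197 arrays gave 11 members lower and 1 higher, where 7.81% of all genes were lower and 7% higher. COL4A5 was at -1.10 ± 0.14 (adjusted p = 0.0076), COL1A1 at -1.55 ± 0.25 (adjusted p = 0.012), COL18A1 at -1.23 ± 0.20 and ITGB4 at -1.29 ± 0.25. The gene called higher was COL23A1 (0.66 ± 0.18), which was not called against LNA-NC. Of the 8 genes called against LNA-NC, ITGAE (0.29 ± 0.10, adjusted p = 0.098) and COL5A2 (-0.61 ± 0.21, adjusted p = 0.086) were not called against NC. These calls share the treated arrays with the ones above.

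The mimic was compared with NC to ask which of these genes move when miR-197 is raised. With pre-miR-197, 1 of the 64 genes was called (1.56%), where 0.217% of all genes were. An unadjusted p under 0.05 was found for 11 members (17.2%) and for 16.5% of all genes, so that share was near the background. The gene was COL4A5. Its levels after NC and pre-miR-197 were 1.67 and 1.01 in A549, -1.01 and -2.43 in PC14 and -0.35 and -1.50 in PC14CDDP, so it was lower in each line (-1.08 ± 0.14, n = 3 lines, adjusted p = 0.040). With any of the 3 lines left out 0 members and 0 of all genes were called. At an unadjusted p under 0.05 without A549, PC14 or PC14CDDP were 23.4%, 12.5% and 9.38% of the members (15, 8 and 6 genes), against 16.5%, 6.87% and 9.72% of all genes. In the 5 lists of neighbouring genes 0 were called with the mimic.

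COL4A5 was therefore at ratios below 0 in all 3 lines with both the mimic, against NC, and the inhibitor, against LNA-NC. COL1A1 was too, at -1.25, -0.79 and -1.21 with the mimic (-1.08 ± 0.25, adjusted p = 0.11), and so was COL13A1 at -1.20, -0.74 and -1.42 (-1.12 ± 0.37, adjusted p = 0.21), although neither A549 array measured it. COL4A6 had ratios of -0.49, -0.69 and -2.19 (adjusted p = 0.25), of which the A549 value alone was measured on both sides. COL4A2 with the mimic was at -0.09, 0.57 and 0.26 (adjusted p = 0.51), and COL18A1 at -0.04, -0.18 and -0.88 (adjusted p = 0.40). ITGB4 was at -0.28, -0.52 and -1.60 (limma adjusted p = 0.18) and COL5A2 at -0.28, -0.78 and -0.06 (limma adjusted p = 0.43). COL18A1, ITGB4 and COL5A2 were thus also below 0 in all 3 lines with both reagents, although neither PC14CDDP array measured COL5A2 here. Higher in all 3 lines without a call were ITGA4 (0.82 ± 0.45), LAMC3 (0.50 ± 0.20) and ITGB1 (0.32 ± 0.18).

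The controls were compared with each other to show how far they differed, since they differ in oligonucleotide, chemistry and slide column together. Between LNA-NC and NC, 0 of the 64 genes were called by limma, where 0.716% of all genes were. An unadjusted p under 0.05 was found for 7 members (10.9%) and for 13.7% of all genes. The methods' t-test called 0 of the members and 0 of all genes, so its 0 carries no information on the members. Of the list genes 1 was called, the adaptor FERMT3 (2.65 ± 0.33, adjusted p = 0.018). COL9A2 had log2 ratios of -0.08 and -0.10 in A549 and PC14, and in PC14CDDP its LNA-NC array was not well above background. ITGA4 had ratios of -0.53 and -0.24 in PC14 and PC14CDDP, and in A549 its LNA-NC array was not well above background. COL1A1 (-0.50 ± 0.25) and COL4A5 (-0.33 ± 0.14) were at lower mean values, and ITGB7 at a higher one (0.98 ± 0.25, adjusted p = 0.13). LAMB3 and LAMC3 had ratios above 0 in all 3 lines, with means of 0.45 and 0.33.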

How the data were processed

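The mRNA of 12 samples was measured on 1-colour Agilent SurePrint G3 v2 arrays. The authors scanned them with Agilent Feature Extraction 10.7.3.1 (per the labels) and deposited spot intensity, as mean, local background and background-subtracted processed signal, with flags, and a table of intensity values that equalled the processed signal on all 62976 spots. The methods read here state no normalization and name Student's t-test in general. Columns of other samples numbered 0.

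The processed signal was averaged over the unflagged, non-control spots of a probe. The level is the log2 of this mean, minus the log2 of the array's 75th percentile (614 to 715 signal units). Probes well above background on at least 3 arrays entered (33714 of 50599; 106 were incomplete), the brightest on average standing for its gene (24857 genes). Names came from the RefSeq table of GRCh38.p14 by accession (28170 probes, 55.7%; 105 of the 122 member probes), else from the file. Per array, 55.8% to 63.1% of probes passed the scanner's background call, 0 spots were saturated, and repeated probes had a median SD of 0.071 to 0.080 on the log2 scale. The number of arrays limits the precision.

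A linear model with terms for transfection and cell line was fitted over the 12 arrays (limma 3.58.1, R 4.3.3), then eBayes, with Benjamini-Hochberg adjustment over all genes and calls at an adjusted p under 0.05. The line pairs treated and control arrays, since they are the same cell line, with correlations of deviations of 0.929 to 0.949 in A549, 0.882 to 0.905 in PC14 and 0.848 to 0.898 in PC14CDDP. Where a probe was well above background on no array of a group, the fold is a bound against, per array, the higher of its own signal and the lowest signal well above background. On simulated data the fit was tested with known changes. The members, lists and roles were chosen with earlier results of these data known. Named were genes with set roles in basement membrane and adhesion, up to 8 called members a direction between lines, called members between transfections and, where under 3 were called, the largest that moved alike in all lines. Further members are named, chosen after their values were seen, and 1 is not reported here by name. Alternatives were quantile scaling, normexp background correction, the deposited table, other filters, probe rules, models, the methods' t-test and leaving out each line or transfection. Figures used matplotlib 3.10.9.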

Additional observations from a re-analysis of the deposited data

Results flagged for a closer look

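Within the 4 arrays of a line, 6 of 126 gap tests over 42 named genes (4.76%) stood out by the distance of the highest or lowest array from the rest, where chance gives 5%. COL6A2 in PC14CDDP was at -2.49 on the LNA-miR-197 array, below the other 3. ITGA3 in A549 was at 1.74 on the LNA-miR-197 array, below the other 3. LAMA5 in PC14 was at 6.82 on the LNA-NC array, below the other 3 by little, since the line's whole range was small. ITGB7 in PC14CDDP was at -2.21 on the LNA-NC array, above the other 3. COL8A2 at -8.35 and ITGB8 at -8.47 in PC14CDDP were low on the LNA-NC array, with 0 of 4 arrays of the line well above background. COL8A2 had a log2 ratio of 1.43 in A549 and of -0.97 in PC14 for LNA-miR-197 against LNA-NC, and this difference between lines was not tested.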

How the results depend on the processing

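Between lines, PC14CDDP against PC14 gave 37 called members, with 32 to 35 when a transfection was left out, and 24 with only the NC and LNA-NC arrays. Of all genes, 48.3%, 37.9% to 44.6% and 27.3% were called in the same order. Normexp background correction gave 31 called members of 64 and 47.5% of all genes, so the share of members was then near that of all genes. A549 against PC14 gave 53 called members, with 48 to 51 and 46, and 38 with a filter on all 12 arrays, which tests fewer genes. Here 68.2%, 60% to 65%, 48.7% and 74% of all genes were called. LNA-NC against NC stayed at 0 members, where at most 1.16% of all genes were called. The LNA-miR-197 count of 8 was 0 with no filter on dim probes, with only the arrays of the comparison, with no replicate block, with the methods' t-test and with any line left out (0 to 0), and 13 with a trend and robust prior. The pre-miR-197 count of 1 was 0 with no filter, with every probe fitted on its own, with only the arrays of the comparison, with no replicate block, with the t-test and with any line left out (0 to 0), 2 with normexp, and 3 with a filter on all 12 arrays or a trend and robust prior. For the inhibitor and the mimic, some of these settings called at most 3 of all 24857 genes, so they say nothing of the members. They were the t-test, no replicate block, the compared arrays alone and any line left out. With the mimic, no filter called 3 of 36274 genes and every probe fitted on its own 27 of 33714 probes. Their 0 says as little of the members. Of all genes, 0.217% were called for the mimic in the main fit and 2.23% with normexp. The filter on all 12 arrays, which tested 44 members, called 2.5% and the trend and robust prior 2.08%. For the inhibitor, 7.66% of all genes were called in the main fit and 13% with that prior. The higher counts of 2, 3 and 13 members thus rose together with those of all genes. The other causes were not tested. Of called named values, 29 of 36 in A549 against PC14 and 20 of 29 in PC14CDDP against PC14 were called in every setting. With LNA-miR-197 0 of 8 were, and with pre-miR-197 0 of 1, but there some settings called 0 of all genes. These counts of 0 therefore carry no information on the members. LAMA4 in PC14CDDP against PC14 reversed, to 0.0322, with the mean of its probes. Levels near background limit COL4A6, COL4A4, COL8A2, LAMA1 and ITGA1. The line as a block was in the reported fit.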
